A study of Mus musculus with 12 samples.

Results

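The 8 genes of the troponin family, Tnnt1, Tnnt2, Tnnt3, Tnni1, Tnni2, Tnni3, Tnnc1 and Tnnc2, were taken by symbol from the 2 deposited tables, each of which lists 20775 genes. RNA-seq had been made from 12 samples in 4 groups of 3. In embryos at E10.5, whole hearts of Med30 f/f; Tnnt-Cre mice (cKO), in which Cre is driven by a promoter of cardiac troponin T, were compared with hearts of Med30 f/f littermates without Cre (Ctrl, which the labels call WT). In adults of 3 months, cardiomyocytes isolated 4 weeks after tamoxifen from Med30 f/f; αMHC-MerCreMer mice (icKO) were compared with cardiomyocytes of Med30 f/f mice without Cre that also received tamoxifen (Ctrl). All mice, controls included, thus carried the floxed allele, in which exon 1 of Med30 is flanked by loxP sites and which descends from 1 embryonic stem cell clone, and the strain is given as C57BL/6. No control carried Cre, so that in these libraries an effect of Cre and an effect of Med30 loss cannot be told apart. The paper reports neither deaths nor impaired heart function after tamoxifen in αMHC-MerCreMer mice without a floxed allele. RNA of such mice is not among the 12 samples. Med30 encodes a subunit of the Mediator core, which links DNA-bound activators to RNA polymerase II. Whether a sample was 1 animal or a pool is not stated, and p-values measure the spread between the samples, which may in part be technical.

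Troponin is the calcium switch of striated muscle, a complex of 3 subunits set along the actin filament. Troponin C binds calcium, troponin I holds actin in its resting state, and troponin T ties the complex to tropomyosin. Each subunit comes in isoforms from separate genes. Tnnt2, Tnni3 and Tnnc1 encode the cardiac troponins T, I and C, and Tnnc1 also serves slow skeletal muscle. Tnnt1 and Tnni1 encode the slow skeletal isoforms, and Tnni1 is the main troponin I of the fetal heart before Tnni3 replaces it. The fast skeletal isoforms are encoded by Tnnt3, Tnni2 and Tnnc2.

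Most troponin genes lie in pairs of a troponin I and a troponin T gene on the same strand. On GRCm38 (GENCODE M21 annotation), Tnni1 (chr1:135779434-135810989, plus strand) is followed after 25364 bases by Tnnt2 (chr1:135836354-135852260). Tnnt1 (chr7:4504570-4516382, minus strand) and Tnni3 (chr7:4518305-4524229) are separated by 1922 bases. Tnni2 (chr7:142441808-142444410, plus strand) and Tnnt3 (chr7:142498836-142516009) are separated by 54425 bases. The troponin C genes stand apart, Tnnc1 at chr14:31208312-31211729 on the plus strand and Tnnc2 at chr2:164777161-164779967 on the minus strand. The annotated spans of Tnni3 and Dnaaf3 overlap on the same strand, and Tnnc1 overlaps Nisch, Tnnc2 overlaps Ube2c and Tnnt3 overlaps Prr33 on opposite strands. Whether reads were counted by strand is not given in the sources used here, so reads in these overlaps cannot be assigned with certainty.

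The promoters of 4 genes are shown because these genes carry the contrasts described here. Tnni3 and Tnnt1 are neighbours that were both lower in adult icKO cardiomyocytes, Tnnc1 was not, and Tnnt2 is the gene whose promoter is used for the embryonic Cre. Each run is the 250 bases before the RefSeq transcription start (GRCm38.p6), 5′ to 3′ on the strand of the gene, and capitals mark matches to the motifs searched on both strands. These were the GATA factor site with the letters GATAA, the TEAD factor site with the letters CATTCC, the TATA box with the letters TATAAA, and the MEF2 site and the CArG box of SRF, searched by their usual consensus. Tnnt2 has a second RefSeq start, whose window is not shown.
Tnni3, chr7:4522529-4522778, minus strand: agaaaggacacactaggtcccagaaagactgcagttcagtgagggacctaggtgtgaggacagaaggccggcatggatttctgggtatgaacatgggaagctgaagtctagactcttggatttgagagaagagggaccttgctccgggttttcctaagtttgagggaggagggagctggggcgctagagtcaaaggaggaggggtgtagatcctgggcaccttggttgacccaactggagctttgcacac
Tnnt1, chr7:4515976-4516225, minus strand: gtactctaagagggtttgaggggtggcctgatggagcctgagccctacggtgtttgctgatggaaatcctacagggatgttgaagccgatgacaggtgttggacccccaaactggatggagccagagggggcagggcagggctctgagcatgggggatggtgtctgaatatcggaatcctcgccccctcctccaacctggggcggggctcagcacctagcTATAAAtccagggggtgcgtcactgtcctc
Tnnt2, chr1:135836084-135836333, plus strand: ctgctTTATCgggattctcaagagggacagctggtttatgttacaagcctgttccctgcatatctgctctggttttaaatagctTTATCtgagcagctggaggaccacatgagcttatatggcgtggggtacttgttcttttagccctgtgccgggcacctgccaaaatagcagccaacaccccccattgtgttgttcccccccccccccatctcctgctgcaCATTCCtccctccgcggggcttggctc
Tnnc1, chr14:31208062-31208311, plus strand: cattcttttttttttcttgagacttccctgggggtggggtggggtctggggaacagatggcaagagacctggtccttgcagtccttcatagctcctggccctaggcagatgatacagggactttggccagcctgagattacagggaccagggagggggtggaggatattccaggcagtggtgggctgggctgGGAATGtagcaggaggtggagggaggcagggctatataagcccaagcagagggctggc

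The Tnni3 window held none of the 5 motifs. In the Tnnt1 window the TATA box began 30 bases before the start. The Tnnt2 window held the GATA site on the opposite strand at 245 and 166 bases before the start and the TEAD site at 27, and the Tnnc1 window held the TEAD site on the opposite strand at 58. No 2 of these matches overlapped. Among all 32851 windows of this length, 22.6% held the GATA site, 12.6% the TEAD site, 12.4% the TATA box, 3.2% the MEF2 site and 1.47% the CArG box, on either strand. A match describes letters and not binding, and factors were not measured.

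Values are RPKM as deposited, which are read counts divided by gene length and by library size. Med30 fell at both stages, from 10.6, 13.3 and 11.3 RPKM in Ctrl hearts to 1.38, 2.02 and 1.004 in cKO hearts, and from 7.66, 7.45 and 7.66 in Ctrl cardiomyocytes to 3.81, 3.16 and 1.82 in icKO cardiomyocytes. The spacing of the lowest values put the depth behind the tables at 13720000 to 20020000 reads per library at E10.5 and 11980000 to 17550000 at 4 weeks. One library stood apart. Of 14 genes with a mean above 20 RPKM in the E10.5 hearts and under 0.15 RPKM in the other 5 adult libraries, 13 reached 0.15 or more in icKO replicate 1, at a median of 0.906% of their E10.5 mean. The same count, made against 4 libraries without icKO replicate 1, was 0 of 14 in Ctrl replicates 2 and 3, 1 of 15 in Ctrl replicate 1 and in icKO replicate 3, and 5 of 19 in icKO replicate 2. Results that rest on icKO replicate 1 are given with and without it.

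In E10.5 Ctrl hearts, per length, Tnnt2 was the highest troponin transcript at 889 ± 229 RPKM (SD, n = 3). Tnni1 at 499 ± 33.4 and Tnnc1 at 465 ± 103 followed, with ranges that overlapped each other. Tnni3 stood at 183 ± 39.9, Tnnt1 at 32.5 ± 14.9, Tnni2 at 11.7 ± 3.84, Tnnt3 at 3.57 ± 0.977 and Tnnc2 at 0.175 ± 0.242, and each of these ranges lay apart from the next. Tnni1 made up 72.01% ± 5.69 of the summed troponin I RPKM and Tnni3 26.3% ± 5.25. Tnnt2 made up 96.2% ± 1.02 of troponin T, and in each Ctrl heart Tnnc1 made up over 99.9% of troponin C. By RNA, the embryonic heart thus held the fetal troponin I as its main isoform beside the cardiac troponins T and C.

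**Figure D1:**
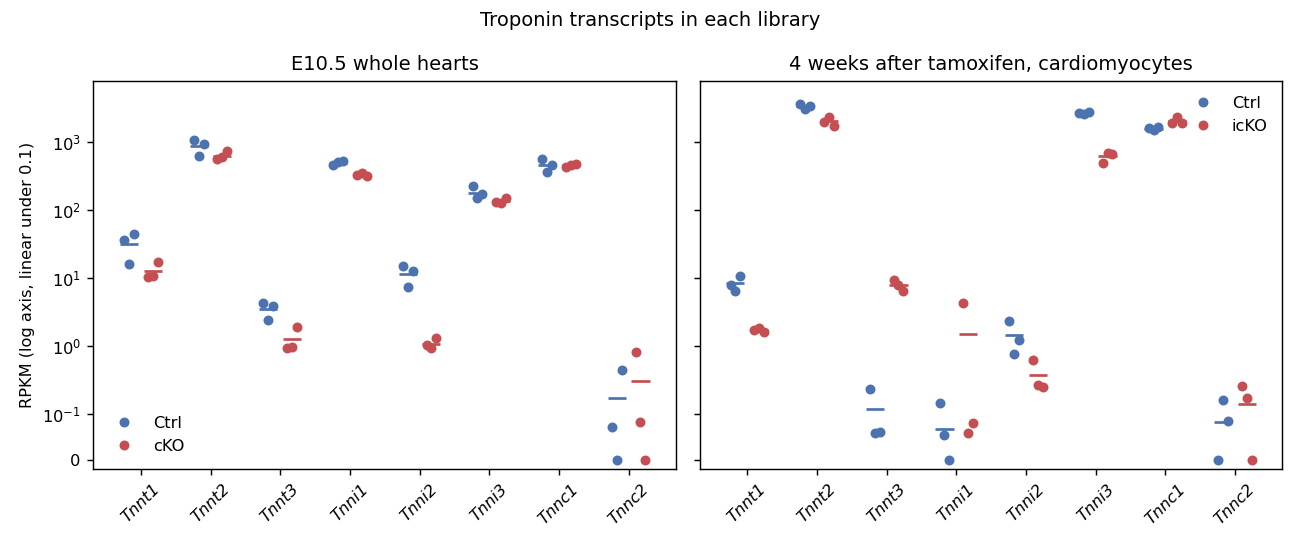
RPKM of the 8 troponin genes in each library of E10.5 hearts (left) and adult cardiomyocytes (right), on a log axis that is linear under 0.1. Points are libraries, blue for Ctrl and red for knockout, and short lines are group means. The red points of Tnni2 lie under the blue ones at both stages, those of Tnni3 and Tnnt1 lie apart from Ctrl at 4 weeks, and Tnnt3 lies lower in cKO hearts and higher in icKO cardiomyocytes.

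The comparison of cKO with Ctrl hearts asks which troponin transcripts differ between them while the heart forms. Tnni2 and Tnnt3, fast skeletal isoforms of low level, were the troponin genes called lower. Genes were tested with limma on log2(RPKM + 0.1) where their mean was above 1 RPKM, which 7 of the 8 troponin genes passed, and a gene counts as called where its Benjamini-Hochberg adjusted p was under 0.05 and its log2 fold change lay beyond 1 in size. Of the 7, 2 were called lower and 0 higher, and of all 10885 genes tested, 0.542% were called lower and 0.239% higher. The median log2 fold change was −0.58 over the 7 genes and −0.13 over all genes tested.

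Among the troponin I genes, Tnni2 gave 15.0, 7.51 and 12.7 RPKM in Ctrl hearts and 1.03, 0.942 and 1.32 in cKO hearts. Every cKO value lay well under the lowest Ctrl value. The means differed 10.7-fold, with a log2 fold change of −3.26 ± 0.25 (SE) and an adjusted p of 0.000367 by limma. By the estimated depth, these values stood for 199, 79 and 136 reads in Ctrl and 12, 11 and 12 in cKO hearts. Tnni1 gave 462, 510.1 and 526 RPKM in Ctrl and 326, 353 and 321 in cKO hearts. These groups did not overlap either, and the log2 fold change of −0.58 ± 0.16 had an adjusted p of 0.0675 by limma. Tnni3 gave 227, 149.9 and 172 RPKM in Ctrl and 132, 129.7 and 154 in cKO hearts, ranges that overlapped. Its log2 fold change was −0.38 ± 0.17 with an adjusted p of 0.217 by limma.

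Of the troponin T genes, Tnnt3 gave 4.36, 2.48 and 3.87 RPKM in Ctrl hearts and 0.931, 0.982 and 1.96 in cKO hearts. The groups did not overlap, and the log2 fold change was −1.44 ± 0.31 with an adjusted p of 0.0374 by limma. The call was lost when 1 of 4 libraries was left out (Ctrl replicate 1 or 3, cKO replicate 1 or 2), with an adjusted p of up to 0.132. Tnnt1 gave 36.4, 16.1 and 45.1 RPKM in Ctrl and 10.3, 11.0 and 17.3 in cKO hearts. Ctrl replicate 2 lay under the highest cKO value, and the log2 fold change of −1.25 ± 0.34 had an adjusted p of 0.0670 by limma. With the filter at a mean above 5 RPKM, where Tnnt3 is not tested, the adjusted p of Tnnt1 was 0.0451. Without Ctrl replicate 2 its log2 fold change was −1.69 with an adjusted p of 0.0121, and without cKO replicate 3 it was −1.48 with an adjusted p of 0.0409, all past the threshold. Tnnt2 gave 1077, 634 and 956 RPKM in Ctrl and 569, 608 and 739.8 in cKO hearts. These ranges overlapped through Ctrl replicate 2, and the log2 fold change was −0.45 ± 0.25 with an adjusted p of 0.297 by limma.

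Among the subunits, the transcripts of troponin C differed least at this stage. Tnnc1 gave 568, 363 and 463 RPKM in Ctrl hearts and 434, 467 and 487 in cKO hearts. The cKO values lay within the Ctrl range, and the log2 fold change was 0.017 ± 0.20 with an adjusted p of 0.970 by limma, a value whose sign turned when Ctrl replicate 2 or cKO replicate 3 was left out. Tnnc2 gave 0.073, 0 and 0.451 RPKM in Ctrl and 0.829, 0.083 and 0 in cKO hearts, about 1, 0 and 5 reads against 10, 1 and 0. It did not pass the filter, and no difference was detectable at this depth (3 reads stood for 0.217 to 0.317 RPKM). The summed troponin I RPKM was 694 ± 23.3 in Ctrl and 473 ± 12.4 in cKO hearts, groups that lay apart, while the summed troponin T (925 ± 243 and 653 ± 93.9) and troponin C (465 ± 103 and 463 ± 26.2) overlapped. In whole hearts, fewer cells of a type and less RNA per cell cannot be told apart.

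Markers of cell types were read beside these values. Of 6 cardiomyocyte markers, 1 (Myh7) was called lower, and their summed level was 1058 to 1384 RPKM in Ctrl and 823 to 1047 in cKO hearts. Myh7 differed most, with means of 536 RPKM in Ctrl and 194 in cKO hearts, so the sum is no count of cardiomyocytes. The means of the others in Ctrl and cKO hearts were 302 and 288 for Myh6, 164 and 167 for Actn2, and 175 and 198 for Ttn. They were 40.0 and 32.0 for Ryr2 and 27.6 and 26.1 for Nkx2-5. Of 11 skeletal muscle markers, 9 had a mean under 0.1 RPKM in the 6 heart libraries, and 4 of these, the myogenic factors Myod1, Myf5 and Myf6 and the satellite cell factor Pax7, were at 0 in all of them. Mylpf, a fast skeletal myosin light chain, stood at 16.7 to 17.5 RPKM in Ctrl and 8.16 to 17.6 in cKO hearts. The 5 erythroid markers summed to 244 to 787 RPKM in Ctrl and 340.1 to 2082 in cKO hearts, and 0 were called. Endothelial markers summed to 94.2 to 137 RPKM in Ctrl and 120.3 to 127 in cKO hearts, smooth muscle and mural markers to 452 to 548 and 562 to 714, without overlap, fibroblast markers to 78.7 to 128 and 95.2 to 108, epicardial markers to 35.7 to 40.4 and 28.6 to 41.7, and macrophage markers to 2.04 to 2.32 and 1.80 to 2.38, and 0 genes of these lists were called. Acta2 and Tagln made up most of the smooth muscle and mural sum in each heart library, so it is no count of these cells. Myh11 of the same list was at most 0.741 RPKM. The epicardial factor Tbx18 had a log2 fold change of −0.95 and an adjusted p of 0.0328 by limma. The part of these levels in the troponin values was not tested.

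In adult Ctrl cardiomyocytes the troponin transcripts were almost entirely those of the cardiac isoforms. Tnnt2 stood at 3387 ± 250.4 RPKM, Tnni3 at 2694 ± 70.1 and Tnnc1 at 1602 ± 83.9, with ranges that lay apart. Tnnt1 at 8.41 ± 2.11 and Tnni2 at 1.47 ± 0.837 followed, and the ranges of Tnnt3 (0.118 ± 0.101), Tnnc2 (0.0837 ± 0.0825) and Tnni1 (0.0673 ± 0.0743) overlapped from one to the next. Tnni3 made up 99.9% ± 0.0335 of the summed troponin I RPKM and Tnni1 0.00252% ± 0.00277, where Tnni1 had been the main isoform in the E10.5 table. The 2 tables were scaled separately and come from whole hearts and isolated cells, so levels across them are given without a test. All 8 troponin genes together held 3.39% ± 0.137 of the summed RPKM of all genes in Ctrl and 2.07% ± 0.194 in icKO cardiomyocytes.

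The comparison at 4 weeks asks which troponin transcripts differ between icKO and Ctrl cardiomyocytes of the grown heart. The paper reports dilated cardiomyopathy and cardiomyocyte death in icKO mice by this time, and regards the adult changes as likely both primary and secondary. An effect of Med30 loss itself and one of heart disease cannot be told apart here. Tnni3 and Tnnt1 were lower in icKO cardiomyocytes, each by more than 4-fold on the deposited scale. Tnnt2 was lower by a smaller amount, except after quantile normalization, Tnnc1 was higher on the deposited scale but not after median-ratio scaling, and Tnnt3 appeared from near 0. Of the 8 genes, 5 passed the filter, 2 were called lower and 1 higher, and of all 9517 genes tested 8.45% were called lower and 28% higher. The gene called higher was Tnnt3, which passed the filter only through the icKO libraries. Without icKO replicate 1 the troponin counts were again 2 lower and 1 higher. On the deposited scale the genes tested had a median of 0.57, with 804 called lower and 2668 higher. After median-ratio scaling, which divides each library by a factor set by the median gene, the median was 0.038 with 1476 lower and 1106 higher. Values on the deposited scale are therefore also given after subtraction of the median of that scale, 0.57.

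Tnni3 gave 2677, 2634 and 2771 RPKM in Ctrl cardiomyocytes and 504, 695 and 685 in icKO cardiomyocytes. The groups lay far apart, and the mean fell 4.29-fold. The log2 fold change was −2.12 ± 0.12 with an adjusted p of 9.8e-07 by limma, or −2.68 after subtraction of the median and −1.27 after quantile normalization. Tnnt1, its neighbour on chromosome 7, gave 7.90, 6.60 and 10.7 RPKM in Ctrl and 1.75, 1.88 and 1.64 in icKO cardiomyocytes. Its mean fell 4.79-fold, with a log2 fold change of −2.17 ± 0.17 and an adjusted p of 5.2e-06 by limma, or −2.74 after the same subtraction. Both were called in every fit that left out 1 library. Tnnt1 lies 1922 bases past the end of Tnni3 on the same strand. Whether transcripts that run on from Tnni3 add to the Tnnt1 reads was not tested. The Tnni3 window printed above held none of the motifs searched, so the windows of this pair could share none. Shared regulation of the pair was not tested.

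Tnnt2 gave 3638, 3138 and 3386 RPKM in Ctrl and 1991, 2378 and 1726 in icKO cardiomyocytes. The groups did not overlap, and the log2 fold change was −0.75 ± 0.12 with an adjusted p of 0.000412 by limma, or −1.31 after subtraction of the median. Its direction depended on the scaling. It was −1.29 after median-ratio scaling, which made it a called gene, and 0.46 after quantile normalization, which gives every library the same distribution. Tnnc1 gave 1630, 1508 and 1668 RPKM in Ctrl and 1915, 2395 and 1944 in icKO cardiomyocytes. All icKO values lay above all Ctrl values, and the log2 fold change was 0.37 ± 0.10 with an adjusted p of 0.00847 by limma. After subtraction of the median it was −0.19, and after median-ratio scaling −0.17 with an adjusted p of 0.206, while after quantile normalization it was 1.19 with an adjusted p of 1.6e-06, so a rise or fall of Tnnc1 itself was not settled by these data.

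Tnnt3, the fast skeletal troponin T, gave 0.234, 0.059 and 0.061 RPKM in Ctrl and 9.33, 7.88 and 6.45 in icKO cardiomyocytes. It passed the filter only through the icKO libraries, so that a difference was built into its being tested. By the estimated depth, 5 reads in the 3 Ctrl libraries stood against 361 in the 3 icKO libraries, a ratio of 75.5 with an exact conditional 95% interval of 32.0 to 234 that covers counting error only. The limma log2 fold change was 5.27 ± 0.31 with an adjusted p of 1.1e-06, and it ranged from 2.98 with a pseudocount of 1 to 6.20 with one of 0.01. The other fast and slow isoforms did not show this pattern. Tnni2 gave 2.40, 0.772 and 1.25 RPKM in Ctrl and 0.625, 0.271 and 0.252 in icKO cardiomyocytes, 44 reads against 12 and a ratio of 0.285 (exact 95% interval 0.137 to 0.549). Its mean missed the filter, and in the fit without a filter its log2 fold change was −1.65 ± 0.43 with an adjusted p of 0.0105 by limma. Tnnc2 gave 0, 0.165 and 0.086 RPKM in Ctrl and 0.258, 0.174 and 0 in icKO cardiomyocytes, 3 reads against 5, and no difference was detectable.

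Tnni1 gave 0.147, 0.055 and 0 RPKM in Ctrl and 4.42, 0.058 and 0.081 in icKO cardiomyocytes. Only icKO replicate 1, the library that also held transcripts of genes high at E10.5, was above the others. Its Tnni1 value was 1.06% of the E10.5 mean, and its value of Hbb-y, an embryonic globin, was 4.12 RPKM and 0.855% of the E10.5 mean. With this library, 79 reads in icKO stood against 3 in Ctrl. Without it, 2 reads stood against 3, a ratio of 1.11 with an exact 95% interval of 0.0924 to 9.66. In icKO replicates 2 and 3 no rise of the fetal troponin I was detectable at this depth, and 3 reads stood for 0.166 to 0.243 RPKM across the adult libraries. Where the transcripts in icKO replicate 1 came from was not tested.

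**Figure D2:**
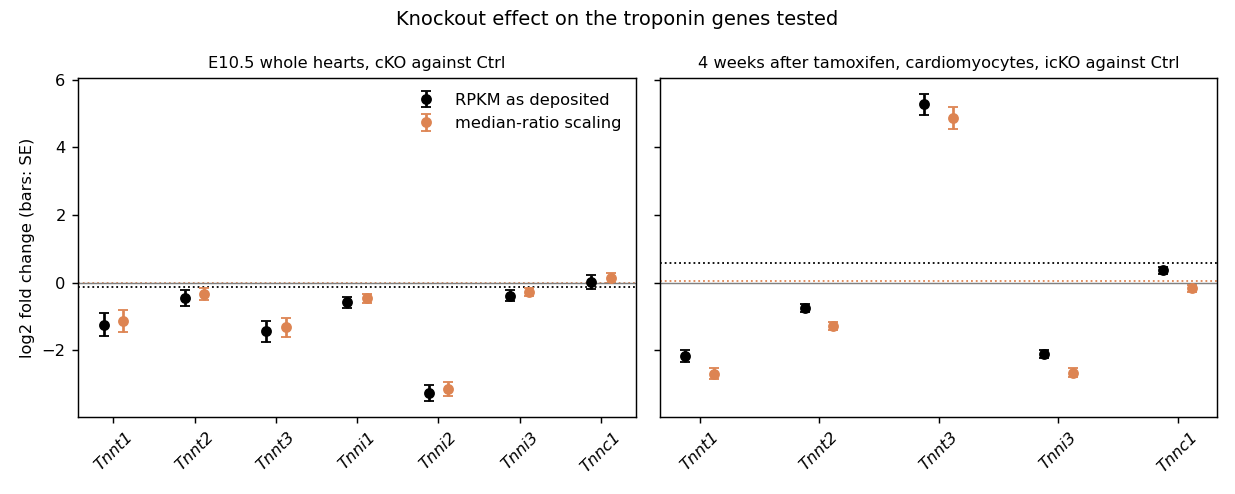
Log2 fold change of knockout against Ctrl for the troponin genes tested, at E10.5 (left, 7 genes) and at 4 weeks (right, 5 genes). Points with SE bars are limma fits of RPKM as deposited (black) and after median-ratio scaling (orange), and dotted lines mark the median of all genes under each. At 4 weeks Tnni3 and Tnnt1 lie under −2 on both scales, Tnnt3 lies above 4 on both, and Tnnc1 lies on either side of 0.

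A ratio of 2 genes within a library does not depend on the scaling between libraries. The ratios show whether the transcripts of the subunits kept their proportion, and troponin protein was not measured in these data. In adult cardiomyocytes, Tnni3 over Tnnc1 was 1.64, 1.75 and 1.66 in Ctrl and 0.263, 0.290 and 0.352 in icKO cardiomyocytes, a 5.62-fold fall. Tnni3 over Tnnt2 fell from 0.736, 0.840 and 0.818 to 0.253, 0.292 and 0.397, and Tnnc1 over Tnnt2 rose from 0.448, 0.480 and 0.493 to 0.962, 1.01 and 1.13. None of these 3 ratios overlapped between the groups. The share of ratios of other genes that lie apart in this way is not given here. The mean log2 differences were −2.49 ± 0.13 (SE) for Tnni3 over Tnnc1, −1.37 ± 0.20 for Tnni3 over Tnnt2 and 1.121 ± 0.079 for Tnnc1 over Tnnt2. Each gave an exact two-sided permutation p of 0.1, the smallest that 3 against 3 allows, and 0.15 after adjustment over the 9 ratios of the stage. Summed over isoforms, the RPKM of troponin I was 1.68 ± 0.0555 times that of troponin C in Ctrl and 0.303 ± 0.0447 times in icKO cardiomyocytes. The transcripts of the 3 subunits therefore changed unequally within a library, with those of troponin I lowest relative to the others.

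At E10.5 the proportions of the same genes moved less. Tnni3 over Tnnt2 was 0.211, 0.236 and 0.180 in Ctrl and 0.232, 0.214 and 0.209 in cKO hearts, with overlapping ranges and a log2 difference of 0.068 ± 0.12 (exact permutation p = 0.8, adjusted 0.9). Tnnc1 over Tnnt2 was 0.527, 0.572 and 0.484 in Ctrl and 0.763, 0.768 and 0.659 in cKO hearts, a log2 difference of 0.47 ± 0.10 with groups that lay apart. Tnni3 over Tnnc1 was 0.400, 0.413 and 0.371 in Ctrl and 0.304, 0.278 and 0.317 in cKO hearts, a log2 difference of −0.40 ± 0.072. Both gave an exact permutation p of 0.1, and 0.18 after adjustment over the 9 ratios. Summed over isoforms, troponin I over troponin C was 1.24, 1.84 and 1.53 in Ctrl and 1.06, 1.04 and 0.979 in cKO hearts, again without overlap.

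Of the isoform ratios at E10.5, those of Tnni2, Tnnt3 and Tnnt1 to the cardiac isoform did not overlap between the groups, and those of Tnni1 and Tnnc2 did. Each of those that lay apart gave an exact permutation p of 0.1, and 0.18 after adjustment over the 9 ratios. The share of ratios of other genes that lie apart is not given here. In E10.5 hearts Tnni2 stood at 6.59%, 5.01% and 7.41% of Tnni3 in Ctrl and at 0.783%, 0.726% and 0.854% in cKO hearts, a 7.35-fold fall. Tnnt3 stood at 0.405%, 0.391% and 0.405% of Tnnt2 in Ctrl and at 0.164%, 0.162% and 0.265% in cKO hearts. The Ctrl values of Tnnt3 over Tnnt2 agreed closely although Tnnt2 itself varied from 634 to 1077 RPKM among them. Tnnt1 stood at 3.38%, 2.54% and 4.72% of Tnnt2 in Ctrl and at 1.81%, 1.80% and 2.34% in cKO hearts, which did not overlap, unlike Tnnt1 alone. Tnni1 over Tnni3 was 2.03, 3.40 and 3.06 in Ctrl and 2.48, 2.72 and 2.08 in cKO hearts, so the balance of fetal and cardiac troponin I overlapped between the groups, with a log2 difference of −0.20 ± 0.25 and an exact permutation p of 0.5 (adjusted 0.75). Tnnc2 stood at 0% to 0.0975% of Tnnc1 in Ctrl and 0% to 0.191% in cKO hearts (exact permutation p = 0.8, adjusted 0.9).

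At 4 weeks Tnnt1 stood at 0.217%, 0.210% and 0.317% of Tnnt2 in Ctrl and at 0.0878%, 0.0791% and 0.0952% in icKO cardiomyocytes. Tnnt3 rose from 0.00643%, 0.00188% and 0.00180% of Tnnt2 to 0.468%, 0.331% and 0.374%, so that it passed Tnnt1 as the second troponin T transcript. It still made up 0.389% ± 0.0696 of the troponin T RPKM, and Tnnt2 99.5% ± 0.0727. Tnni1 stood at 0.877% of Tnni3 in icKO replicate 1 and at 0.00835% and 0.0118% in icKO replicates 2 and 3, against 0% to 0.00549% in Ctrl. The log2 difference of Tnni1 over Tnni3 was 3.81 with icKO replicate 1 and 2.08 without it, and in the libraries other than icKO replicate 1 it rests on 0 to 2 reads of Tnni1. Without icKO replicate 1, Tnni3, the denominator, had a log2 fold change of −1.97, and Tnni1 gave 2 reads in icKO against 3 in Ctrl. Tnni2 over Tnni3 overlapped between the groups (log2 difference 0.47 ± 0.65, exact permutation p = 0.5, adjusted 0.562), and so did Tnnc2 over Tnnc1 (log2 difference −0.043 ± 0.70, exact permutation p = 1, adjusted 1).

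**Figure D3:**
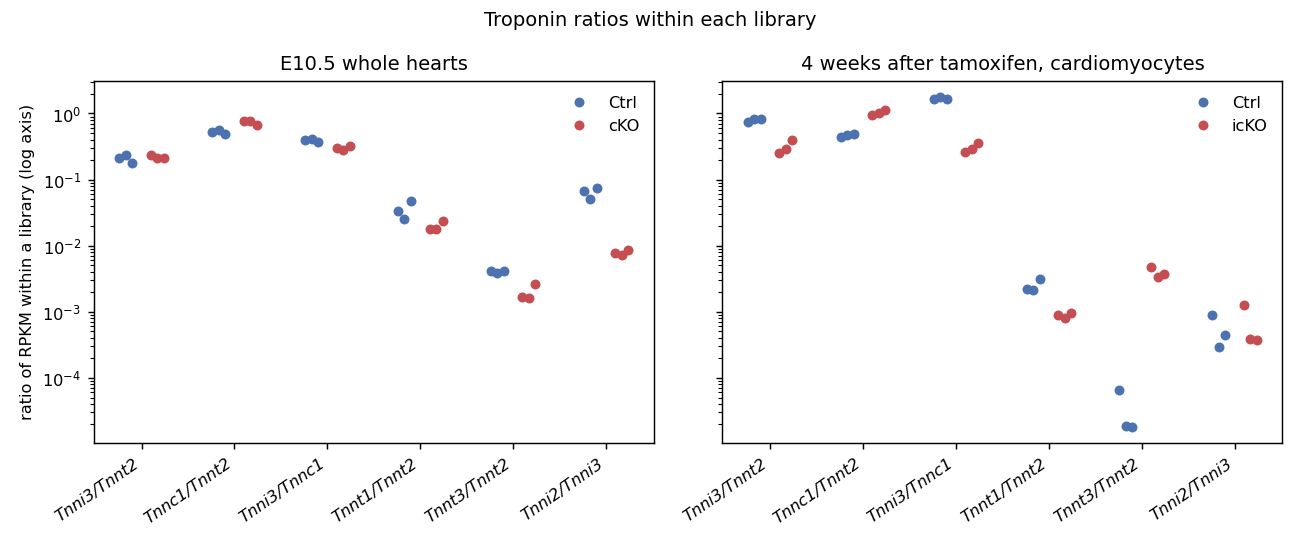
Ratios of RPKM between 2 troponin genes within each library, on a log axis, at E10.5 (left) and at 4 weeks (right). Points are libraries, blue for Ctrl and red for knockout. Tnni3 over Tnnt2 overlaps between the groups at E10.5 and lies apart at 4 weeks, and Tnnt3 over Tnnt2 is lower in cKO hearts and higher in icKO cardiomyocytes.

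The knockout effect was compared between the stages with a limma contrast over all 12 samples, for genes with a mean above 1 RPKM at both stages. The Cre, the time since deletion, the age and the kind of sample all differ between the stages and cannot be told apart. For Tnni3 the effect at 4 weeks was lower than at E10.5 by −1.73 ± 0.23 on the log2 scale, with an adjusted p of 2.4e-05. For Tnnt3 it was higher by 6.71 ± 0.48 with an adjusted p of 1.9e-07, and it had the opposite sign at the 2 stages, but Tnnt3 entered this fit only through the icKO libraries, so the p-value is no independent support. Of all 8909 genes in this fit, 68.7% had an adjusted p under 0.05, and the median difference was 0.69. Tnnt1 (−0.92 ± 0.44, adjusted p = 0.0771), Tnnt2 (−0.30 ± 0.28, adjusted p = 0.361) and Tnnc1 (0.36 ± 0.23, adjusted p = 0.179) did not pass the threshold with limma on the deposited scale. After median-ratio scaling, Tnnt1 (−1.56, adjusted p = 0.00668) and Tnnt2 (−0.96, adjusted p = 0.00339) did.

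Other genes of the thin filament, the track on which troponin sits, did not move as 1 group. At E10.5, 10 of 12 passed the filter, 0 were called lower and 1 higher. That gene was Acta1, the skeletal actin, at 112, 118 and 113 RPKM in Ctrl and 262, 342 and 260.4 in cKO hearts. The median log2 fold change of the 10 was −0.054, against −0.13 over all genes tested. At 4 weeks all 12 were tested, 3 were called lower and 4 higher, and the median was −0.0030 against 0.57 over all genes. Of the 4 higher, Tpm2 and Neb, the giant filament ruler nebulin, had Ctrl means under 1 RPKM and passed the filter only through the icKO libraries. Tmod4, a skeletal tropomodulin that caps the filament, fell from 12.3, 10.1 and 13.5 RPKM to 0.144, 0.580 and 0.608. Lmod2, a leiomodin that elongates it, fell from 518, 531 and 418 to 144, 168 and 165. Tpm2, a tropomyosin of skeletal and smooth muscle, rose from 0.256, 0.611 and 0.616 RPKM to 7.16, 11.4 and 7.44, and Tpm3, the slow tropomyosin, from 1.41, 1.11 and 1.77 to 4.82, 6.39 and 5.32. After median-ratio scaling the list counted 5 lower and 2 higher.

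The other lists place the adult troponin values among their partners, and their counts are read against the 8.45% called lower and 28% called higher over all genes. Of 9 thick filament genes, 8 were tested at 4 weeks, and 4 were called lower and 2 higher with a median of −0.80. Myh6, the main adult myosin whose promoter drives the adult Cre, had a log2 fold change of −3.34 and Myh7 one of −2.12, and Mybpc2, the fast myosin-binding protein C, rose from 5.03, 5.56 and 5.29 RPKM to 31.2, 29.4 and 30.3. Myl4, the atrial and fetal light chain, rose from 1.39, 1.63 and 1.08 to 16.3, 7.87 and 6.31, highest in icKO replicate 1. The genes that supply calcium to troponin C had the lowest median, −2.20 over 6 of 8 genes tested, with 4 called lower and 0 higher. Pln, which restrains the calcium pump, had −4.56, and Atp2a2, the pump, −2.98, while Casq2, the calcium store protein, had 0.42 and Casq1 −1.02, neither of them called.

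Among 8 kinases and partners of troponin I, 7 were tested at 4 weeks, 1 was called lower and 2 higher, with a median of 0.62, shares and a median near those of all genes. Tnni3k, the kinase named for its interaction with cardiac troponin I, fell with it, from 34.4, 36.8 and 36.6 RPKM to 12.9, 14.04 and 16.6 (log2 fold change −1.31 ± 0.10, adjusted p = 4.8e-06 by limma). Prkca, a protein kinase C that phosphorylates troponin I, had a log2 fold change of 1.34 and Prkacb, a catalytic subunit of protein kinase A, one of 1.14, and both fell short of a log2 change of 1 after median-ratio scaling. Prkd1 had −0.26 and was not called. Of 12 heart transcription factors, all tested, 1 (Tbx5, −1.65) was called lower and 2 higher (Tbx20, 1.51, and Srf, 1.11), and Myocd had −0.37. Neither share was above that of all genes. After median-ratio scaling 1 was called lower and 0 higher. At E10.5 no gene of these last 2 lists was called, with 0 of 8 and 0 of 12, and 1 thick filament gene (Myh7) and 1 calcium gene (Pln, −1.61) were called lower.

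**Figure D4:**
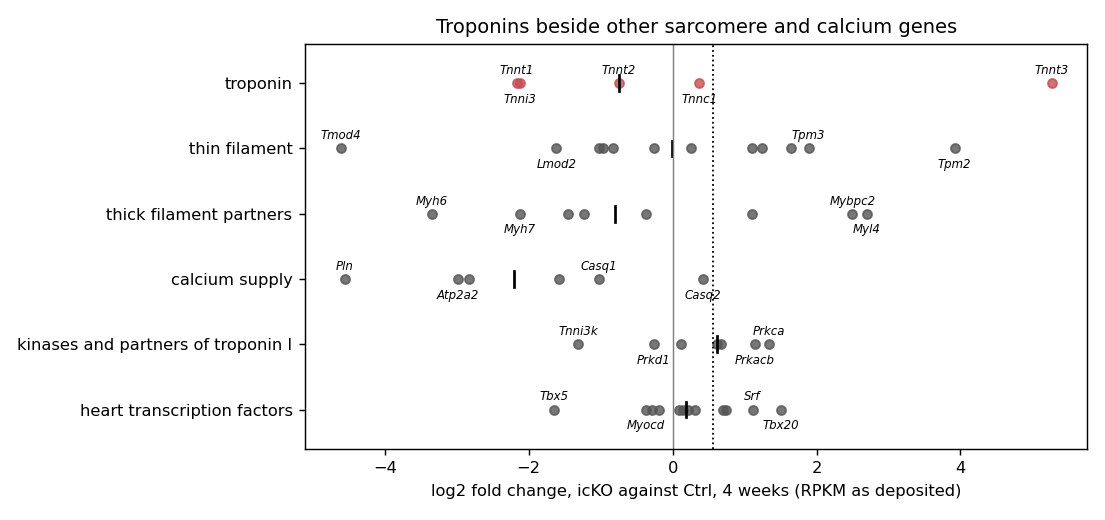
Log2 fold change at 4 weeks, icKO against Ctrl on RPKM as deposited, of the troponin genes tested and of the genes tested in 5 lists. Each point is a gene, the short black lines are list medians, and the dotted line is the median of all genes tested. The troponins span from under −2 to above 5, and the calcium genes have the lowest median.

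Skeletal muscle markers were read beside the rise of Tnnt3. In the adult libraries 10 of 11 had a mean under 0.1 RPKM, 4 of them at 0 in all 6 libraries. Pax7 and the fast myosins Myh1, Myh2 and Myh4 reached at most 0.020 RPKM in any icKO library. Mylpf, which missed the filter, stood at 0.234, 0.176 and 0.456 RPKM in Ctrl and at 1.74, 1.48 and 1.55 in icKO cardiomyocytes, without overlap. The list summed to 0.370 to 0.648 RPKM in Ctrl and 1.58 to 1.81 in icKO cardiomyocytes, of which Mylpf was most in the icKO libraries. Smooth muscle and mural markers summed to 45.6 to 71.3 RPKM in Ctrl and 49.8 to 76.4 in icKO libraries, with 2 of 4 tested called higher, against 28% of all genes. Fibroblast markers summed to 4.56 to 7.81 RPKM in Ctrl and 34.4 to 59.4 in icKO libraries, with all 4 tested called higher, 3 of which passed the filter only through the icKO libraries, and at most 18.1 RPKM for a single gene (Col3a1). The part of these levels in the rise of Tnnt3 was not tested. Markers of cardiomyocytes remained the most abundant of the lists, at 5937 to 6247 RPKM in Ctrl and 2080 to 2252 in icKO libraries, with 3 of 6 called lower, 0 higher and a median log2 fold change of −1.34. Myh6 made up most of the Ctrl sum and fell from a mean of 4381 to 440 RPKM, so the sum is no count of cardiomyocytes. The 3 markers not called differed in direction. Ttn fell from a mean of 732 to 495 RPKM, while Actn2 rose from 626 to 1139 and Nkx2-5 from 23.5 to 39.1.

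Genes that lie between paired troponin genes were compared with them. Lsp1, a leukocyte actin-binding protein, lies between Tnni2 and Tnnt3. It gave 12.9, 15.3 and 11.4 RPKM in Ctrl hearts and 6.11, 6.48 and 5.24 in cKO hearts (log2 fold change −1.13 ± 0.14, adjusted p = 0.00769 by limma). In adult cardiomyocytes it fell from 14.9, 11.2 and 8.84 RPKM to 1.87, 1.64 and 1.22 (−2.79 ± 0.21, adjusted p = 3.6e-06). Tnni2 and Lsp1 thus were lower at both stages, while Tnnt3 beside them was lower at E10.5 and higher at 4 weeks. Lad1, between Tnni1 and Tnnt2, missed the filter at both stages, at 0.724 to 1.116 RPKM in Ctrl and 0.753 to 0.989 in cKO hearts, and at 0.475 to 0.884 in Ctrl and 0.158 to 0.446 in icKO cardiomyocytes. No annotated gene lies between Tnnt1 and Tnni3. Dnaaf3, whose span overlaps that of Tnni3 on the same strand, fell with it at 4 weeks, from 1.94, 2.26 and 2.24 RPKM to 0.460, 0.683 and 0.497, and reads of the overlap cannot be assigned to either gene with certainty.

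Over all 12 samples, among 8909 genes with a mean above 1 RPKM at both stages, the genes with log2(RPKM + 0.1) most like Tnni3 were Idh3b, Tnni3k, Etfdh, Atp5a1 and Stom, with a Pearson r of 0.998 to 0.994. Idh3b, Etfdh and Atp5a1 encode mitochondrial enzymes. Those most like Tnnt2 were Atp5g3, Ldhb, Vdac1, Atp5b and Ndufb10 (r of 0.990 to 0.988), and those most like Tnni1 were Myl7, Mest, Igf2, Men1 and Trim33 (r of 0.996 to 0.991). These are descriptions without a test. The 12 samples fall into 2 stages that were scaled separately, so the points of a stage share tissue and scale. Beside Tnni1, Myl7, an atrial light chain, stood in icKO replicate 1 at 7.30 RPKM against 0.205 to 0.715 in the other adult libraries. Without icKO replicate 1, over 11 samples and 8872 genes, those most like Tnni1 were Topbp1, Jpt2, Mest, Mtf2 and Arl6ip1, so that Mest alone was in both lists, while 5 of 5 genes for Tnnt2 and 4 of 5 for Tnni3 were in both.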

How the data were processed

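RNA was sequenced from ribosome-depleted total RNA of 3 E10.5 cKO and 3 Ctrl hearts, and of 3 icKO and 3 Ctrl samples of adult cardiomyocytes. The authors mapped reads to mm10 and deposited RPKM per gene, 1 table per stage; the submitters' processing notes name cutadapt 2.6, STAR 2.5.3a, HOMER 4.11.1 and DESeq2 1.12.4. Each table also holds the authors' own log2 fold change and FDR, which were not used. How reads shared by related troponin genes were counted is not given in the sources used here.

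Within each stage, limma 3.58.1 (lmFit, eBayes with trend; R 4.3.3) was run on log2(RPKM + 0.1), keeping genes whose mean exceeded 1 RPKM, with Benjamini-Hochberg adjustment across every gene kept. This scale understates changes of low genes. The fits were tested on simulated data. Depth was estimated as the library size that brings the lowest values, those up to 12 reads, closest to whole numbers (63.9% to 73.4% came within 0.1). At a depth fixed beforehand 20% would by chance, but the depth was picked for this share, which is thus no independent check. Reads of low troponin genes came from the length at which their values, 4 to 9 per gene, are nearest to whole reads. Intervals and the floor of 3 reads cover counting error only, and not the error of these estimates. Ratios were to be fitted with limma too, but every gene of such a fit shares the error of the reference gene and the variance model broke down, so exact permutation tests of the per-library ratios, two-sided, are given instead, adjusted over the ratios of a stage (scipy 1.17.1, Python 3.11.15). The named genes were all 8 troponins, the 2 highest and 2 lowest of each list, genes between paired troponin genes, and the 5 genes most like Tnnt2, Tnni1 and Tnni3. Acta1, Myh7, Tnni3k, Mylpf, Neb, Tbx18, Col3a1, Hbb-y, Dnaaf3, Myl7 and the other cardiomyocyte markers were named outside this rule, after their values were seen. The members and lists were chosen with earlier results of these data known. Alternatives were other pseudocounts (1, 0.01), no filter or a mean above 5, 3 other scalings, eBayes without trend, the replicate number as a block, and leaving out each library; icKO replicate 1 was set apart after its values were seen. Same-numbered samples did not deviate together throughout, so the number was not taken as a pairing.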

Additional observations from a re-analysis of the deposited data

Results flagged for a closer look

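The knockout effect on 2 of 5 troponin genes tested differed between the stages by the limma contrast over all 12 samples, which 68.7% of all genes tested passed too, with a median difference of 0.69. For Tnni3 the difference of the log2 fold changes, 4 weeks minus E10.5, was −1.73 (adjusted p = 2.4e-05), and all 3 icKO libraries lay under all 3 Ctrl libraries while the E10.5 groups overlapped. For Tnnt3 the difference was 6.71, given without its p-value because the gene passed the filter at 4 weeks only through the icKO libraries, with 3 of 3 cKO hearts lower and 3 of 3 icKO libraries higher than every Ctrl library of their stage. Over all fits that left out 1 library the difference ranged from −1.90 to −1.58 for Tnni3 and from 6.53 to 7.06 for Tnnt3. The processing moved them more, for Tnni3 from −2.39 after median-ratio scaling to −0.91 after quantile normalization, and for Tnnt3 from 3.98 with a pseudocount of 1 to 7.71 with one of 0.01. Age, Cre, time since deletion, kind of sample and heart disease cannot be told apart in it.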

How the results depend on the processing

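The calls of Tnni2 at E10.5 and of Tnni3 and Tnnt1 at 4 weeks held in every fit that tested them. The call of Tnnt3 at 4 weeks held too, but the gene passed the filter only through the icKO libraries, so this is no independent support. Over all alternatives, 162 fold changes of single troponin genes kept their direction and side of the threshold, 6 passed it, 6 no longer passed it and 4 turned. At E10.5 the number of troponin genes called lower was 2, and 1 without a filter or with eBayes without a trend (Tnnt3 lost, adjusted p = 0.0788 and 0.0682), and 1 to 3 when 1 library was left out. With a mean above 5 RPKM it was again 2, but Tnnt1 was called (adjusted p = 0.0451) and Tnnt3 was not tested. Tnnc1 at E10.5 turned to −0.15 without Ctrl replicate 2 and −0.021 without cKO replicate 3, and ranged from −0.15 to 0.17 without 1 library. At 4 weeks the number called higher was 1, 0 with a mean RPKM above 5 (Tnnt3 not tested) and 2 after quantile normalization (Tnnc1 added). Tnnt2 turned to 0.46 after quantile normalization and Tnnc1 to −0.17 after median-ratio scaling. Thin filament genes called higher at E10.5 were 2 after each of the 3 scalings (1 to 2 without 1 library). At 4 weeks 0 were called higher with a mean above 5 and 2 after median-ratio scaling and quantile normalization, and 5 were called lower after median-ratio scaling and scaling without the 20 most abundant genes.

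With a pseudocount of 1, the log2 differences of ratios moved to −0.55 (Tnnt3/Tnnt2) and −2.18 (Tnni2/Tnni3) at E10.5, and to −1.001 (Tnnt1/Tnnt2), 3.73 (Tnnt3/Tnnt2) and 1.32 (Tnni2/Tnni3) at 4 weeks, and with 0.01 to 6.95 (Tnnt3/Tnnt2). Quantile normalization, which alters ratios within a library, gave −3.10 (Tnnt1/Tnnt2), 4.34 (Tnnt3/Tnnt2), −1.72 (Tnni3/Tnnt2) and 0.73 (Tnnc1/Tnnt2) at 4 weeks. Filter and trend alternatives do not apply to ratios and were not run.

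The difference between stages passed the threshold for Tnnt1 after median-ratio scaling (−1.56), scaling without the 20 most abundant genes (−1.33), quantile normalization (−1.21) and with the replicate block (−0.92), and ranged from −1.22 (without E10.5 Ctrl replicate 3, adjusted p = 0.0212) to −0.48 without 1 library. For Tnnt2 it was −0.96 and −0.71 under the first 2 and turned to 0.53 under quantile normalization. For Tnnc1 it turned to −0.30 and −0.060 under the first 2, was 0.64 under quantile normalization, and ranged from 0.20 to 0.52 (without E10.5 Ctrl replicate 2, adjusted p = 0.0209) without 1 library. The cause of these shifts was not tested.

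The number of all genes called at E10.5 was 59 lower and 26 higher, and 18 to 102 lower and 9 to 36 higher when 1 library was left out; the scalings gave 36 to 41 lower and 35 to 48 higher. Deviations of same-numbered samples correlated at −0.070 to 0.15, with 3 of 6 highest for their own number. With the replicate block, 3 troponin genes were called lower at E10.5 (Tnnt1 added, adjusted p = 0.0163), and no other troponin call within a stage changed. Depth limits Tnnc2 at both stages and Tnni1 at 4 weeks, where most libraries held fewer than 3 reads.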
